A study of Danio rerio with 85 samples.

Results

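The H3K27me3 peaks of zebrafish embryos at 3 days post fertilization (dpf) were compared between 3 *rnf2* mutant samples and 2 wildtype samples, which are 5 of the 85 samples of the series. The mutants are labelled myl7:GFP_rnf2-/- (replicates 2, 3 and 4) and the wildtypes myl7:GFP_rnf2+/+ (replicates 1 and 2). Both genotypes share the TU/TLF mixed background and the myl7:GFP transgene, and both were used untreated as whole embryos without yolk. Each sample is the chromatin of a pool of embryos of all tissues, so a peak can come from a part of the cells only, and fewer cells with the mark cannot be told apart from less mark per cell. Mutants had been picked by their phenotype from a heterozygous incross, and the wildtypes were embryos of a separate wildtype strain of that background, not their siblings. Peaks at most 1000 bp apart were merged and peaks that overlapped an input peak were dropped, which left 2861, 1031 and 2855 peaks in mutants 2, 3 and 4, and 2154 and 1940 peaks in wildtypes 1 and 2. Together they form 3835 regions on GRCz10.

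H3K27me3 is the repressive histone mark that PRC2 places through its Ezh2 subunit, and it is known for broad domains over silenced developmental genes. Rnf2 (Ring1b) is the E3 ligase of PRC1, the second Polycomb complex, which ubiquitinates H2A at the same kind of domain. PRC1 can recognize H3K27me3 through its chromobox subunits, and variant PRC1 can in turn help to recruit PRC2, so the comparison asks where the mark is found when Rnf2 is missing. As a check of the genotypes, 18, 38 and 22 Rnf2 peaks were left in mutants 2, 3 and 4 after the same processing, against 1050 and 1049 in wildtypes 1 and 2.

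Mutant 3 stood apart from the other samples. Its peaks covered 728362 bp, while those of mutants 2 and 4 covered 5207154 and 5580975 bp and those of wildtypes 1 and 2 covered 5584932 and 4638315 bp. The peaks it did have lay largely inside those of the others: 82.8% and 87.2% of them had at least 50% of their bases covered in mutants 2 and 4, and 79.9% and 72.8% in wildtypes 1 and 2. They marked the wider peaks, since the wildtype 1 peaks with a peak of mutant 3 had a median width of 4084 bp and those without one 759.5 bp. All values are therefore given for each mutant sample separately. The labels name a *Drosophila* spike-in for all 5 samples, whereas the design text of the series names it for 1 mutant sample and 2 wildtype samples, and every peak name in the 5 lists carries the mark of normalized reads. Read numbers are not part of the peak lists. The depth of each sample is thus unknown, and its part in the differences between samples was not tested.

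The widest peaks were narrower in every mutant than in the wildtypes, while the median widths overlapped. The median width was 971, 443 and 927 bp in mutants 2, 3 and 4, against 1052 and 893.5 bp in wildtypes 1 and 2, and the groups overlapped (two-sided exact permutation test of the medians, p = 0.6). The 90th percentile was 4495, 1586 and 5297 bp in the mutants, against 6955 and 6820 bp in the wildtypes. Every mutant thus lay below both wildtypes in this upper part of the distribution. Peaks of at least 5000 bp made up 8.67%, 0.679% and 10.6% of the peaks in mutants 2, 3 and 4, against 15.1% and 14.9% in wildtypes 1 and 2. In number they were 248, 7 and 303 in the mutants, against 325 and 290 in the wildtypes. By number mutant 4 thus lay above wildtype 2, and its lower share went with a longer peak list. Peaks of at least 10000 bp numbered 43, 0 and 78 in the mutants, or 1.41% ± 1.37 of the peaks (SD, n = 3), against 116 and 88 in the wildtypes, or 4.96% ± 0.601 (SD, n = 2). The 2 groups did not overlap (p = 0.1 in the exact permutation test, two-sided, which cannot go lower with 5 samples split into 3 and 2). The p of the 90th percentile and of the share of at least 5000 bp was 0.2 each in that exact test, with mutant 3 far below the others. The widest single peak had 25105, 7552 and 30879 bp in the mutants, against 64217 and 41994 bp in the wildtypes. Peaks of at least 10000 bp held 10.8%, 0% and 18.6% of the covered bases in the mutants and 32.7% and 28.05% in the wildtypes. Lists of equal length were made from the 1031 peaks of each sample that rank highest by the caller's q value. In them 20.6%, 0.679% and 27.8% had at least 5000 bp in mutants 2, 3 and 4, against 31.1% and 28.03% in wildtypes 1 and 2. Only mutant 4 thus came close to wildtype 2, and mutants 2 and 3 stayed well below both wildtypes. A stricter q threshold (-log10 q of at least 3.51) widened the difference in shares, with 13.5%, 0% and 17.2% in the mutants, against 28.6% and 29.5% in the wildtypes. These lists still differed in length, with 1458, 305 and 1538 peaks in mutants 2, 3 and 4, against 1065 and 835 in wildtypes 1 and 2. The shares and medians of mutants 2 and 4 at this threshold are thus taken over longer lists. The median widths then did not overlap, at 1565.5, 309 and 1526 bp in the mutants, against 2331 and 2489 bp in the wildtypes (exact permutation test, p = 0.1).

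**Figure D1:**
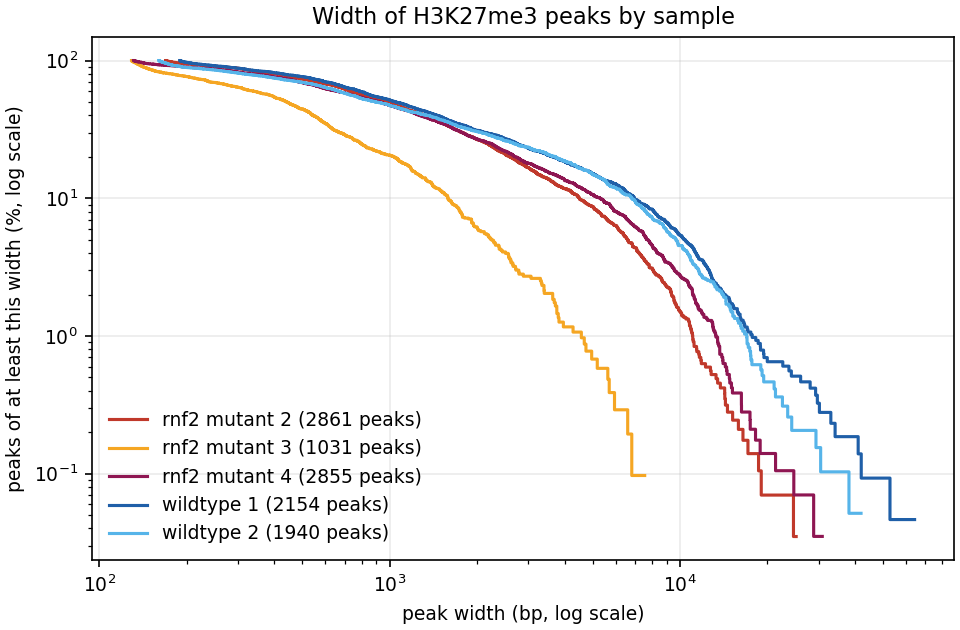
Share of the H3K27me3 peaks of a sample (y axis, %, log scale) that are at least as wide as the value on the x axis (bp, log scale), with a line for each of the 3 *rnf2* mutant and 2 wildtype samples. Mutants 2 and 4 run with the wildtypes up to about 2000 bp and below them from there on, down to widest peaks of 25105 and 30879 bp against 64217 and 41994 bp, and mutant 3 runs below all others.

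With the full peak lists, wildtype 1 peaks were covered more often in mutants 2 and 4 than in wildtype 2. Wildtype 2 peaks were covered less often in these mutants than in wildtype 1. Of the 2154 peaks of wildtype 1, 58.7% had at least 50% of their bases covered in mutant 2 (95% Wilson interval 56.6% to 60.8%), 4.50% in mutant 3 (3.71% to 5.46%) and 60.4% in mutant 4 (58.3% to 62.4%), against 47.6% in wildtype 2 (45.5% to 49.7%). Of the 1940 peaks of wildtype 2, 63.2% reached this in mutant 2, 5.93% in mutant 3 and 64.3% in mutant 4, against 71.2% in wildtype 1. These intervals cover counting error only. The value between the wildtypes depends on which of them is covered, and the shares of mutants 2 and 4 lie between its 2 values, 47.6% and 71.2%. The median covered share of a wildtype 1 peak was 69.1%, 0% and 71.0% in mutants 2, 3 and 4, against 44.8% in wildtype 2. For a wildtype 2 peak it was 79.3%, 0% and 84.5%, against 91.7% in wildtype 1. Averaged over the wildtype lists, 42.9% ± 32.6 of the peaks were covered by at least 50% in mutants (SD, n = 3), and 61.7% in mutants 2 and 4 alone. With the 1031 highest-ranked peaks of each sample, this average was 52.3%, 7.37% and 59.3% in mutants 2, 3 and 4. All mutants then lay below both values between the wildtypes, 60.5% and 74.4%. With the stricter q threshold the average was 59.4%, 1.45% and 67.6%, and mutants 2 and 4 again lay between the wildtype values, 48.5% and 80.2%.

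For the peaks of wildtype 1 in the full lists, the order of mutants 2 and 4 and the other wildtype changed with width. Of the 1040 wildtype 1 peaks under 1000 bp, 40.9% were covered by at least 50% in mutant 2, 3.85% in mutant 3 and 38.7% in mutant 4, against 23.6% in wildtype 2. Of its 116 peaks of at least 10000 bp, 81.9% were so covered in mutant 2, 3.45% in mutant 3 and 96.6% in mutant 4, against all 116 in wildtype 2. Narrow wildtype 1 peaks were thus found more often in mutants 2 and 4 than in the other wildtype, and the widest ones less often. The widest peaks of wildtype 2 were also covered less often in mutants: of its 88 peaks of at least 10000 bp, 78.4% were covered by at least 50% in mutant 2, 7.95% in mutant 3 and 95.5% in mutant 4, against all 88 in wildtype 1. Its 1024 peaks under 1000 bp were covered by at least 50% in 48.3%, 5.08% and 44.8% of cases in mutants 2, 3 and 4, against 51.9% in wildtype 1. The peaks of wildtype 2 were thus covered less often in mutants than in the other wildtype at both ends of the width range, and the order did not change. Peaks of one sample are not independent, and the samples allow no test of these differences with width.

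**Figure D2:**
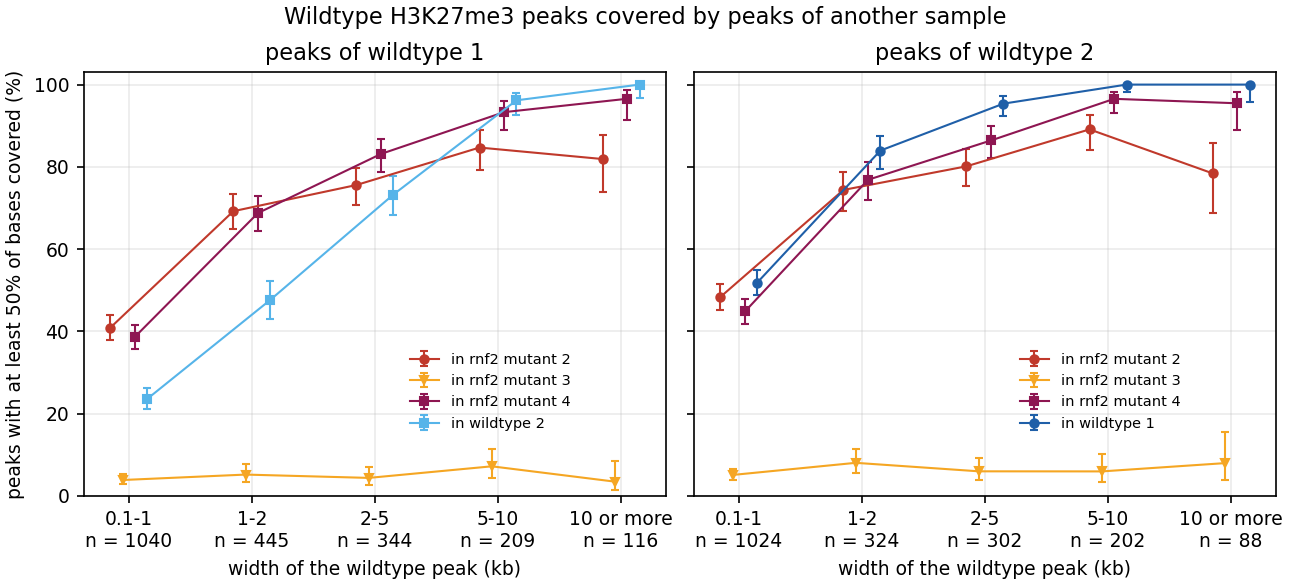
Share of wildtype peaks with at least 50% of their bases covered by peaks of another sample (y axis, %), by the width of the wildtype peak (x axis, kb, with the number of peaks), for the peaks of wildtype 1 (left) and wildtype 2 (right). The points are shares and bars 95% Wilson intervals, for the 3 *rnf2* mutants and the other wildtype, and among peaks of at least 10 kb the other wildtype covers all 116 and all 88, mutant 4 covers 96.6% and 95.5%, mutant 2 covers 81.9% and 78.4%, and mutant 3 stays low at every width.

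Wide wildtype peaks were less covered in mutants than in the other wildtype. The 100 widest peaks of wildtype 1 had 63.3%, 11.7% and 81.9% of their bases covered in mutants 2, 3 and 4, against 89.96% in wildtype 2. Those of wildtype 2 had 67.7%, 14.3% and 85.1% of their bases covered in mutants 2, 3 and 4, against 97.0% in wildtype 1. Conversely, the 100 widest peaks of mutant 2 had 95.2% and 90.8% of their bases covered in wildtypes 1 and 2, and those of mutant 4 had 96.2% and 91.1%. Among the mutants themselves, those of mutant 4 had 81.4% of their bases covered in mutant 2, and those of mutant 2 had 95.4% in mutant 4. Wide peaks of mutants 2 and 4 were thus covered in wildtype 2 to about the share that wide wildtype 1 peaks were, and the lowest shares outside mutant 3 were those in mutant 2. Uncovered stretches lay toward the ends: in wildtype 1 peaks of at least 5000 bp, with each peak divided into 10 equal parts, part 1 was covered to 51.4%, 6.397% and 62.0% in mutants 2, 3 and 4, and to 67.0% in wildtype 2. Part 5 was covered to 83.2%, 20.8% and 92.5% in the mutants and to 94.4% in wildtype 2. The ends were less covered than the middle in every sample, the other wildtype included. Wide peaks also met several smaller ones, as 57.8%, 68.1% and 45.7% of the wildtype 1 peaks of at least 10000 bp met 2 or more separate peaks in mutants 2, 3 and 4, against 43.97% in wildtype 2. For wildtype 2 peaks of that width the shares were 55.7%, 61.4% and 42.05% in the mutants, against 15.9% in wildtype 1. Of the peaks of that width in mutants 2 and 4, 27.9% and 30.8% met 2 or more peaks of wildtype 2, and 6.98% and 11.5% met 2 or more of wildtype 1.

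Where Rnf2 had been found in the wildtype, wide peaks were covered less in mutants than where it had not. Peaks at Rnf2 are those that overlapped an Rnf2 peak of both wildtypes, and their share grew with width, from 1.44% of wildtype 1 peaks under 1000 bp to 94.0% of those of at least 10000 bp. Of the wildtype 1 peaks of at least 5000 bp, the 256 at Rnf2 had a median of 76.8%, 9.40% and 86.7% of their bases covered in mutants 2, 3 and 4, against 90.7% in wildtype 2. The 69 without Rnf2 had a median of 91.1%, 12.2% and 92.9% in the mutants, against 93.5% in wildtype 2. The gap between the classes was 14.3 percentage points in mutant 2, 2.85 in mutant 3 and 6.11 in mutant 4, against 2.77 in wildtype 2. In wildtype 2 peaks of that width, the median was 78.8%, 9.71% and 91.6% in mutants 2, 3 and 4 at Rnf2 (n = 233), against 99.6% in wildtype 1, and 92.5%, 14.2% and 97.2% in the mutants without Rnf2 (n = 57), against 98.7% in wildtype 1. Peaks at Rnf2 were also the wider ones, so width and Rnf2 cannot be told apart fully in these classes. Wildtype 1 peaks of 5000 to 10000 bp at Rnf2 had medians of 78.7% and 86.8% in mutants 2 and 4. Those without Rnf2 had 89.3% and 92.7%. At 2000 to 5000 bp the medians were 77.0% and 92.5% at Rnf2, against 82.9% and 87.3% without, reversed in mutant 4. For wildtype 2 peaks of 2000 to 5000 bp they were 90.2% and 93.7% at Rnf2, against 89.6% and 93.6% without.

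The 6 regions with the most H3K27me3 bases in wildtype show what this means at single places. They were chosen for high wildtype values, so that lower values elsewhere are in part fixed by the choice. The region at chromosome 23, positions 35940892 to 36024767, had 16108, 0 and 58451 covered bases in mutants 2, 3 and 4, against 82528 and 77993 in wildtypes 1 and 2. It lay in 13, 0 and 10 separate peaks in the mutants, against 2 and 5 in the wildtypes. The domain was thus nearly whole in both wildtypes, lay in many separate peaks in mutants 2 and 4, and was not called in mutant 3. On chromosome 19, the region 20141392 to 20218836, had 23894, 0 and 49086 covered bases in the mutants, against 74198 and 67457 in the wildtypes. The chromosome 3 region 23554904 to 23624979, had 19323, 147 and 42067 covered bases in the mutants, against 69029 and 67538 in the wildtypes, and its neighbour at 23511747 to 23553807 had 25853, 0 and 40377, against 42061 and 38388. This neighbour is the only one of the 6 in which a mutant value, that of mutant 4, lay above a wildtype value. The region at chromosome 17, 38284319 to 38326755, was the only one with over 1000 covered bases in mutant 3, with 29149, 10713 and 35084 covered bases in the mutants, against 41321 and 37659 in the wildtypes. On chromosome 11, the region 2097394 to 2136987, had 9498, 147 and 25135 covered bases in the mutants, against 35896 and 32151 in the wildtypes. All 6 held Rnf2 peaks in both wildtypes, of 15322 to 75020 bp per sample, and none in the 3 mutants. Most wildtype peaks of at least 10000 bp lay at Rnf2, so this is not particular to these 6.

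**Figure D3:**
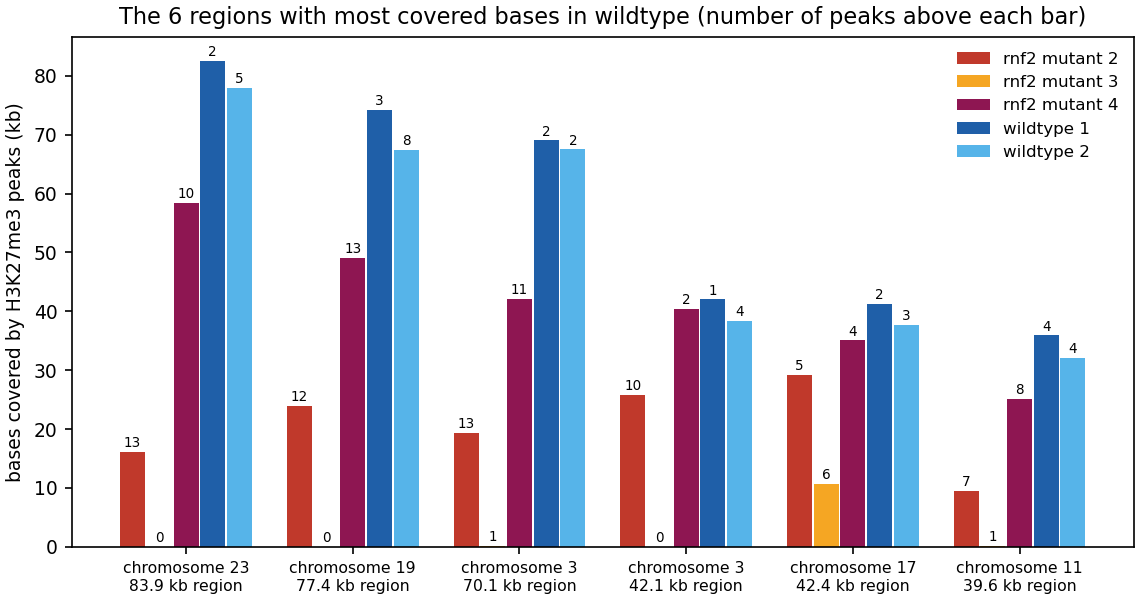
Bases covered by H3K27me3 peaks (y axis, kb) in the 6 regions with the most covered bases in wildtype, with a bar for each of the 3 *rnf2* mutant samples and the 2 wildtype samples and the number of separate peaks above it. In the first region mutants 2, 3 and 4 have 16108, 0 and 58451 covered bases in 13, 0 and 10 peaks, and the wildtypes 82528 and 77993 in 2 and 5 peaks.

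The fold enrichment of the peaks that remained in these 6 regions, the peak caller's ratio over its background, differed between mutants 2 and 4. In the chromosome 23 region it was 4.55 and 5.19 in mutants 2 and 4, against 4.32 and 4.49 in wildtypes 1 and 2. In the chromosome 17 region it was 5.44, 5.15 and 5.99 in mutants 2, 3 and 4, against 4.47 and 4.86. In the chromosome 3 region 23554904 to 23624979 it was 4.33, 4.65 and 5.05 in the mutants, against 4.42 and 4.61 in the wildtypes, so that mutant 2 lay below both wildtypes. Mutant 2 also lay below wildtype 2 in the chromosome 3 neighbour, with 4.70 against 4.71, and in the chromosome 11 region, with 4.29 against 4.48. Mutant 4 lay above both wildtypes in all 6 regions. These ratios are averages over called peaks only and say nothing of the stretches between them.

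Of 402 regions with at least 3000 bases common to both wildtypes, the share of these bases that was covered had a median of 88.7%, 10.3% and 95.9% in mutants 2, 3 and 4. At least 90% of the common bases were covered in 185, 3 and 253 of the 402 regions, and less than 50% in 39, 377 and 10. Cover under 50% was thus found in few of these regions in mutants 2 and 4 and in most in mutant 3. The 5 regions with the lowest cover in mutants 2 and 4 were chosen for these values. Among them, chromosome 23, 36028316 to 36046326, had 0% and 27.6% of its common bases covered in mutants 2 and 4, and chromosome 23, 36077991 to 36087701, had 2.54% and 27.2%. Both follow the widest domain on that chromosome. On chromosome 9 the adjacent regions 1932588 to 1945518 and 1946577 to 1955728 had 3.98% and 38.6%, and 19.2% and 35.9%, of their common bases covered in mutants 2 and 4. On chromosome 24, the region 8574745 to 8589796, had 8.17% and 24.5%. Mutant 3 covered 0% of the common bases in all 5, and each held Rnf2 peaks in both wildtypes. Most wildtype peaks of at least 5000 bp lay at Rnf2. The share of the 402 regions with Rnf2 peaks in both wildtypes was not counted. Whether low cover went with Rnf2 among these regions was thus not tested. At the other end, all common bases were covered in mutants 2 and 4 in the regions at chromosome 22, 20428933 to 20446454, chromosome 24, 23788037 to 23805751, chromosome 8, 46935065 to 46950860, chromosome 2, 29721377 to 29734703, and chromosome 9, 21908112 to 21919488. Mutant 3 covered between 10.9% and 50.9% of the common bases in these 5. Among these 5, the regions on chromosomes 22, 24 and 8 held Rnf2 peaks in both wildtypes. Their length per sample ran from 10736 bp (chromosome 22, wildtype 1) down to 1106 bp (chromosome 8, wildtype 2). The chromosome 2 region held no Rnf2 peak in either wildtype, and the chromosome 9 region a stretch of 161 bp in wildtype 2 only. Full cover in mutants 2 and 4 was thus found both with and without Rnf2 in the wildtypes.

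Across all regions with a peak in the 4 samples other than mutant 3, changes of size went both ways. Of 1133 such regions, 330 (29.1%) had more covered bases in mutants 2 and 4 than in either wildtype, and 239 (21.1%) had fewer. By wildtype size, 235 of 556 regions with a wildtype mean under 2000 bases lay above the wildtypes in mutants 2 and 4, and 44 lay below. Of 113 regions with at least 10000 wildtype bases, 5 lay above and 67 lay below. The size classes use the wildtype values that are also compared, which moves small regions up and large ones down. In limma, no region with a peak in all 5 samples differed in covered bases at an adjusted p under 0.05, with 0 of 561 higher and 0 lower in mutants, and 0 regions had an unadjusted p under 0.05. The median SE was 1.08 on the log2 scale, so a change of that size in a region was not detectable with these samples. The median difference was -0.70 on the log2 scale with all mutants and 0.07 without mutant 3 on the 1133 regions, where 97 regions were higher and 42 lower at an unadjusted p under 0.05 and 0 after adjustment. Mutant 3 therefore sets both the sign and the spread of this comparison.

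In 36 of the 3835 regions (0.939%) all 3 mutants had a peak and no wildtype did. In 478 regions (12.5%) mutants 2 and 4 had one and no wildtype did. Both wildtypes had a peak that was missing in mutants 2 and 4 in 84 regions (2.19%). The 478 were short, with a median length of 937 bp and 1 of at least 5000 bp, and 0 of them lay at Rnf2. Short peaks of these samples seldom lay at Rnf2. Of the peaks under 1000 bp, 6.55% and 1.79% did in mutants 2 and 4, and 1.44% and 3.61% in wildtypes 1 and 2. The 0 was not tested against these shares. Mutants 2 and 4 have longer peak lists, and with the 1031 strongest peaks of each sample the numbers were 70 regions in the mutants alone and 87 in the wildtypes alone. The excess of regions found only in mutants thus did not hold for lists of equal length. It was kept with the stricter q threshold, with 224 regions in the mutants alone and 28 in the wildtypes alone. The lists of mutants 2 and 4 were again longer there than those of the wildtypes. Without merging the numbers were 479 and 85, and with input peaks left in place 484 and 117.

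The fold enrichment of the peaks was higher in every mutant than in either wildtype. Its median was 4.69, 5.05 and 4.90 in mutants 2, 3 and 4, a mean of 4.88 ± 0.184 (SD, n = 3), against 3.78 and 4.10 in wildtypes 1 and 2, a mean of 3.94 ± 0.220 (SD, n = 2). The groups did not overlap, and the p of the exact permutation test was again 0.1. The whole distribution was shifted, as the 5th percentile was 4.003, 4.54 and 4.11 in the mutants, against 3.22 and 3.57 in the wildtypes. The lowest ratios that were still called as peaks were thus higher in mutants too. Among peaks of at least 5000 bp the median was 5.17, 5.23 and 5.69 in mutants 2, 3 and 4, against 4.48 and 4.69 in wildtypes 1 and 2.

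In the 561 regions with a peak in every sample, limma called 345 (61.5%) higher and 0 lower in mutants at an adjusted p under 0.05, with a median difference of 0.27 on the log2 scale. Over these regions the sample medians were 5.14, 5.05 and 5.599 in mutants 2, 3 and 4, against 4.27 and 4.48 in wildtypes 1 and 2. When the median of each sample was subtracted, 6 regions (1.07%) stayed higher and 0 lower, with 72 higher and 58 lower at an unadjusted p under 0.05. Most of the calls thus went with a shift in the sample medians. Only regions with a called peak in every sample entered this test, and the lowest ratios still called were higher in mutants. How far that floor of the peak caller sets the shift and the calls was not tested. Without wildtype 1 there were 53 calls and without wildtype 2 there were 206. The shift was smaller in large regions: among 99 regions with a wildtype mean of at least 10000 bases the median difference was 0.17 and 22.2% were called, and among 101 regions of 1000 to 2000 bases it was 0.38 and 88.1% were called. The classes were cut on wildtype bases, and narrow wildtype peaks had lower ratios. The medians were 3.56 and 3.91 under 1000 bp in wildtypes 1 and 2, against 4.48 and 4.69 at 5000 bp or more. Small regions thus lay nearer to the lowest ratios called, and the part of this in the difference between classes was not tested. No region class was tested against another.

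**Figure D4:**
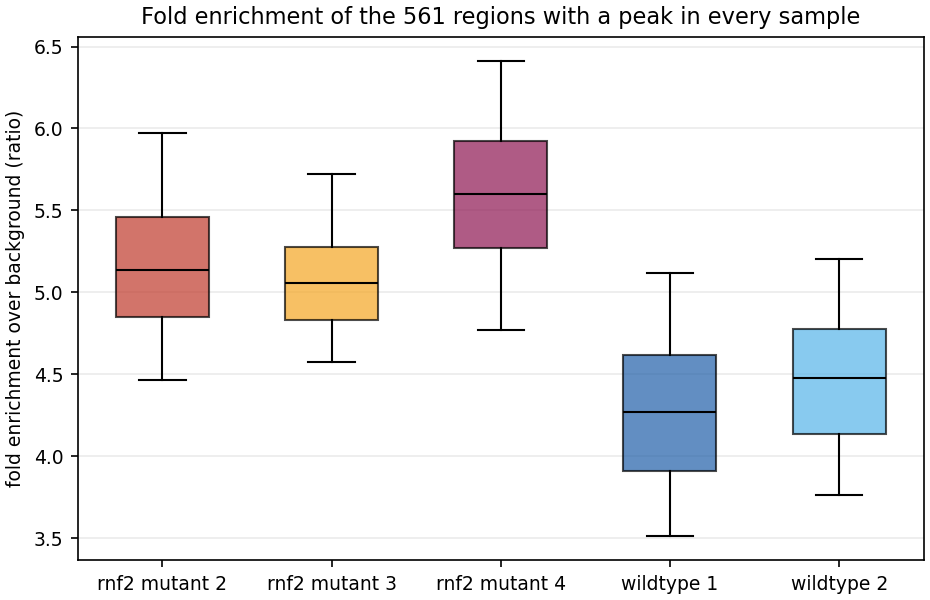
Fold enrichment over background (y axis, ratio) of the 561 regions with a peak in every sample, for the 3 *rnf2* mutant and the 2 wildtype samples (lines are medians, boxes quartiles, whiskers the 5th and 95th percentiles over regions). The medians are 5.14, 5.05 and 5.599 in mutants 2, 3 and 4, all above 4.27 and 4.48 in the wildtypes.

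The called regions with the largest increase were small. The region at chromosome 5, 39908697 to 39911538, had a fold enrichment of 4.52, 5.47 and 5.43 in mutants 2, 3 and 4, against 3.09 and 3.34 in wildtypes 1 and 2, a log2 difference of 0.67 (SE 0.107, limma adjusted p = 2.31e-07). On chromosome 23, the region 44676869 to 44678510, had 5.67, 5.01 and 5.87 in the mutants, against 3.27 and 3.72 in the wildtypes (log2 difference 0.66). In both, the mutant values lay well above the wildtype values. The regions at chromosome 21, 17975873 to 17976886, chromosome 9, 11560576 to 11563814, and chromosome 16, 10884183 to 10888909, followed with log2 differences of 0.64, 0.64 and 0.61. The SE is the same for all regions because limma estimated 1 common spread, so these p-values rest on the spread pooled over regions and not on that of 5 samples. After the sample medians were subtracted, the chromosome 5, 23 and 9 regions stayed called (limma adjusted p = 0.0492 each), and the chromosome 21 and 16 regions did not (limma adjusted p = 0.111 and 0.0626). Without mutant 3 as well, a setting chosen after seeing the data, none of the 5 stayed called (limma adjusted p between 0.211 and 0.306).

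A fold enrichment of at least 8, a value chosen after the data were seen, was reached by 7, 30 and 18 peaks in mutants 2, 3 and 4, against 10 and 6 in wildtypes 1 and 2. All but 1 of these in mutant 3 and all but 1 in mutant 4 were under 500 bp wide, as were all in the other samples. The highest value was at chromosome 13, 40038786 to 40038968, with 142 in mutant 3 and 146 in mutant 4 and no peak in mutant 2 or in either wildtype. Rnf2 ChIP, with another antibody, had 107 and 89.2 at this place in mutants 3 and 4, and 15.1 in wildtype 2. Of the 30 in mutant 3, 18 met a peak of mutant 4 and 3 a peak of mutant 2, against 88.7% and 85.8% of all its peaks. Of the 18 in mutant 4, 15 met a peak of mutant 3 and 4 a peak of mutant 2, against 23.9% and 70.8% of all its peaks. Of the 30, 17 also met an Rnf2 peak of a mutant, as did 14 of the 18 in mutant 4. The share of all peaks that did so was not counted, but mutants 2, 3 and 4 had only 18, 38 and 22 Rnf2 peaks. Another site, at chromosome 16, 7576767 to 7577081, was high in every sample, with 35.5, 11.6 and 14.9 in the mutants, against 17.3 and 19.3 in the wildtypes. Part of these narrow places were thus peaks of the Rnf2 ChIP too.

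The shares of the covered bases overlapped between genotypes on most chromosomes. On 4 of 25 chromosomes (16%) the share was higher in every mutant than in both wildtypes (2, 6, 14 and 21), and on 5 (20%) it was lower (3, 7, 19, 23 and 24). The smallest adjusted p of the 25 exact permutation tests was 0.556, and none of them can go below 0.1 before adjustment. Chromosome 14 held 6.37%, 5.81% and 6.53% of the covered bases in mutants 2, 3 and 4, against 5.11% and 5.27% in wildtypes 1 and 2. Chromosome 3 held 4.64%, 3.17% and 5.30% in the mutants, against 5.80% and 6.16% in the wildtypes, and chromosome 23 held 3.01%, 2.098% and 3.73%, against 4.24% and 4.28%. Counted by peaks and not by bases, the groups were apart on 5 chromosomes (2, 11 and 14 higher, 7 and 8 lower). Without mutant 3 they were apart on 17 chromosomes, but leaving out a sample can only keep or raise this count.

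Among 1164 windows of 1 Mb with a peak, chosen by their difference between mutants 2 and 4 and the wildtypes, the largest gain was on chromosome 14 between 2000001 and 3000000. This window had 108271, 8267 and 118383 covered bases in mutants 2, 3 and 4, in 56, 9 and 65 peaks, against 43347 and 28086 in wildtypes 1 and 2, in 37 and 32 peaks. In mutant 3 it held 1.14% of all covered bases, against 0.776% and 0.606% in the wildtypes. The next was on chromosome 10 between 21000001 and 22000000, with 73149, 4551 and 76330 covered bases in the mutants, against 41072 and 20527 in the wildtypes, and there the share of all covered bases in mutant 3, 0.625%, lay between those of the wildtypes, 0.735% and 0.443%. None of the H3K27me3 peaks in these windows overlapped an Rnf2 peak of both wildtypes. Rnf2 peaks of wildtypes 1 and 2 held 0 and 0 bp of the chromosome 14 window, and 0 and 170 bp of the chromosome 10 window. The largest losses were on chromosome 3 between 23000001 and 24000000, with 57262, 878 and 99931 covered bases in the mutants, against 139762 and 132001 in the wildtypes, and on chromosomes 23, 19, 9 and 7. These 6 windows of loss held 15216 to 109575 bp of Rnf2 peaks in each wildtype and 0 bp in each mutant. Mutants had few Rnf2 peaks anywhere. The windows were ranked by bases lost, which favours places with wide wildtype peaks, and most of the widest wildtype peaks lay at Rnf2. The share of the 1164 windows with Rnf2 peaks was not counted, and a link between loss and Rnf2 was not tested. With the 2 windows of gain and the 6 of loss left out, an alternative chosen after seeing the data, in which smaller differences are fixed by the choice of windows, the groups were apart on 5 chromosomes (6 and 21 higher, 5, 7 and 24 lower). Chromosome 14 then held 4.57%, 4.79% and 4.84% of the covered bases in mutants 2, 3 and 4, against 4.79% and 5.18% in wildtypes 1 and 2, and the groups overlapped there and on chromosomes 3, 19 and 23.

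**Figure D5:**
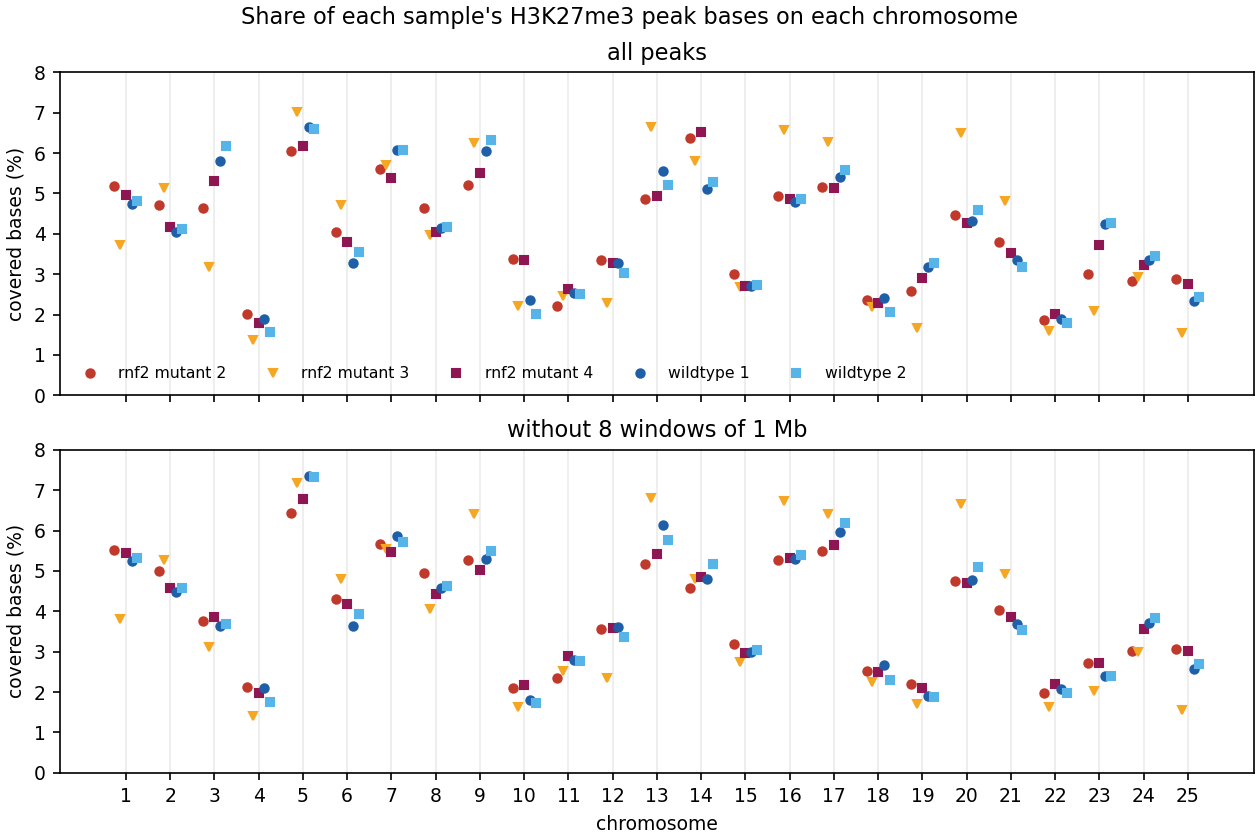
Share of a sample's covered bases on each of the 25 chromosomes (y axis, %), for the 3 *rnf2* mutant and the 2 wildtype samples, with all peaks (top) and without 8 windows of 1 Mb (bottom). Chromosome 14 lies at 6.37%, 5.81% and 6.53% in mutants 2, 3 and 4, against 5.11% and 5.27% in the wildtypes, with all peaks, and the groups overlap there without the windows.

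Whether samples of the same genotype were more alike than samples of different genotype depended on which mutants were counted. The bases present in both samples of a pair, over those present in either, were 61.5% for mutants 2 and 4, 12.8% for mutants 2 and 3, 12.3% for mutants 3 and 4, and 67.9% for the wildtypes. Between genotypes they were 53.6% and 50.6% for mutant 2 with wildtypes 1 and 2, 11.7% and 13.2% for mutant 3, and 61.4% and 57.7% for mutant 4. Mutant 4 with wildtype 1 was thus as alike as with mutant 2, and the pair of wildtypes was the most alike. Pairs of the same genotype averaged 38.6% and pairs of different genotype 41.4%, a difference of -2.74 percentage points (one-sided exact permutation test over 10 splits, p = 0.5). Mutant 3, the least like all others, is in 2 of the 4 pairs of the same genotype and in 2 of the 6 other pairs. The difference was 4.06, 8.87 and 8.08 percentage points, in the other direction, without mutants 2, 3 and 4 (exact permutation p = 0.333 each, which cannot go lower with 4 samples).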

How the data were processed

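H3K27me3 ChIP-seq peaks of whole 3 dpf embryos were taken as deposited, 1 list per sample. Per the paper's methods and the submitters' notes, the authors aligned reads to GRCz10 with BWA 0.7.15, removed multimapping and duplicate reads (Picard), scaled samples to *Drosophila* spike-in reads by random removal, and called broad peaks with MACS2 2.1.1 against input. Random removal lowers the depth of the larger samples, and the loss of multimapping reads leaves repeats without peaks. The fold enrichment is the authors' ratio over background as deposited. The -log10 p and -log10 q values are the peak caller's, as deposited by the authors, and were used for the stricter threshold and for ranking. Inputs were 1 list per genotype.

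Peaks at most 1000 bp apart were merged, and peaks under 100 bp (0 found) or overlapping an input peak were dropped (191, 199 and 127 in mutants 2, 3 and 4, and 248 in each wildtype). Fold enrichment was averaged by length. Groups were compared by exact permutation of sample values, and regions with a peak in all 5 samples by limma 3.58.1 on log2 values (R 4.3.3; called at a Benjamini-Hochberg adjusted p under 0.05), tested on simulated data first. Other values used Python 3.11.15 with numpy 2.4.6 and scipy 1.17.1. Nothing in the sources states that replicates were separate clutches, so p-values measure the spread between these samples. Named regions are the 6 with the most wildtype bases, the 5 lowest and 5 highest in cover, and the 5 called regions with the largest increase. The comparisons, members and lists were chosen with earlier results of these data known. Alternatives changed merging, input removal, threshold, list length, cover limit and samples. Positions on GRCz10 were not joined to genes, since no annotation of that build was used here, and the RNA of genes at peaks was not analysed here.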

Additional observations from a re-analysis of the deposited data

How the results depend on the processing

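No paired analysis was possible because the mutants are numbered 2, 3 and 4 and the wildtypes 1 and 2, so that they share only 1 number. Of 131 values of the group comparisons under alternatives, 117 kept their direction, and their side of the threshold or a size near the first one, 9 moved and 5 reversed. Counts were compared by size only. Counts of 0 calls in covered bases, and of 0 lower regions in fold enrichment, that stayed at 0 are among those kept. With peaks under 10000 bp only, the groups were again apart on 9 chromosomes, but on partly different ones (11, 14, 21 and 22 higher, 1, 5, 7, 15 and 18 lower). Direction alone was kept by the difference in median width, which ran from -1276.5 bp (stricter threshold) to -23.75 bp (without mutant 3). The groups were apart on 9 chromosomes with all samples, on 5 by share of peaks, on 5 without the 8 windows of 1 Mb (chosen after seeing the data), and on 11 to 17 when 1 sample was left out. Leaving out a sample can only keep or raise this count, and most of these leave-one-out counts are among the values kept. The difference in base overlap, within minus between genotypes, ran from -13.3 to 8.87 percentage points with 1 sample left out, and it was 4.06, 8.87 and 8.08 without mutants 2, 3 and 4. Regions with a higher fold enrichment in mutants (limma) numbered 345, and 6 with sample medians subtracted. They numbered 715 of 1133 without mutant 3 on regions with a peak in the other 4 samples, and 0 of these with medians subtracted as well (also chosen after seeing the data), where 65 were higher and 101 lower at an unadjusted p under 0.05. With 1 sample left out they ran from 53 to 378, and lower regions from 0 to 1. They were 53 without wildtype 1 and 206 without wildtype 2, fits in which a lone wildtype sample is assumed to vary like the mutants, and the 1 lower region appeared without mutant 2. The median log2 difference in covered bases ran from -1.06 to 0.0685, and was 0.0206 without mutant 3 on the 561 regions and 0.0685 on the 1133. The cause of these changes was not tested. Among named regions, 166 values kept their side or size, 17 moved, 7 lost the call and none reversed. Depth is unknown, and 3 samples against 2 cannot give an exact p under 0.1.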
